A study of Arabidopsis thaliana with 8 samples.

Results

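74 genes of the 33602 in the deposited table were higher in shade than in sun after 4 hours and close to their sun level after 1 hour. They were selected on log2(CPM + 1), where CPM divides the reads of a gene by a size of its library. In the deposited values that size was close to the sum of the reads but not equal to it. Both 4 h shade libraries had to lie above both 4 h sun libraries, with a difference of mean log2 values of at least 0.8, a mean of at least 10 CPM in 4 h shade, and a difference at 1 h of under 0.4 in either direction. No more than 300 genes were to be kept, a limit that was not reached. All 8 libraries entered this choice, so the differences below describe the genes and carry no test. The tissue was leaves and shoot apex of Col, an unmodified *Arabidopsis thaliana* accession, from soil-grown plants 2 weeks old, with cotyledons, hypocotyls and roots removed. Photosynthetic light was equal in sun and shade, and far-red was added so that red exceeded far-red in sun and far-red exceeded red in shade. Shade began 4 hours after lights on, and sun and shade plants were harvested together after 1 h and after 4 h. Each of the 4 conditions had 2 replicates of 5 pooled plants, so each value averages over plants and over all cell types of the tissue, and fewer cells of a type cannot be told apart from less RNA per cell.

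Phytochromes sense the balance between red and far-red light, and when far-red predominates the bHLH transcription factors called PIFs are released from degradation and activate auxin synthesis and growth genes. Those targets respond fast, while the genes chosen here had a small difference at 1 h and a larger one at 4 h. Whether they form a class apart from the fast targets was not tested. A sun plant is not static over the same hours: transcripts under the circadian clock go up or down through the morning, so a gene can be higher in shade at 4 h because its shade level is higher than before, because its sun level is lower than before, or both. Leaves also carry inducible defence and stress programmes, such as synthesis of the indole phytoalexin camalexin, glutathione conjugation of toxic compounds and cold protection.

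The 250 bases before the annotated start of 4 of the genes show the letters searched for among all of them, and were taken from the RefSeq annotation of TAIR10.1. *PIF4* and *PIF5* (listed as PIL6) are growth-promoting factors of the shade pathway, *MYBL2* is a repressor of anthocyanin synthesis, and *CYP71A13* makes an early intermediate of camalexin. Capitals mark the G-box (CACGTG, the site PIFs bind), the W-box core (TTGAC, the site of WRKY defence factors) and the evening element (AAAATATCT, a site of clock MYB factors), read on either strand. In *PIF5* the G-box directly follows a W-box core.
PIF5 (chr3:21830838-21831087, minus strand): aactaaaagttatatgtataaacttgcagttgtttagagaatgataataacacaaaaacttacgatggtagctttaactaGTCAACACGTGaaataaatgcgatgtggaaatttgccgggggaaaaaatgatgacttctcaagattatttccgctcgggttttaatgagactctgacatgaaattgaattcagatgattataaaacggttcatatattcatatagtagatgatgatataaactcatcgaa
PIF4 (chr2:17885851-17886100, plus strand): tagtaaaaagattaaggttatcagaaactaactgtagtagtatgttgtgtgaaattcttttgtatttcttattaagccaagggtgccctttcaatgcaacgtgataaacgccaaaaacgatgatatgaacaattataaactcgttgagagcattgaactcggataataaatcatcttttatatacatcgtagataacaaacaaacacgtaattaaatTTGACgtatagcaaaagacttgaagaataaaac
MYBL2 (chr1:26796533-26796782, minus strand): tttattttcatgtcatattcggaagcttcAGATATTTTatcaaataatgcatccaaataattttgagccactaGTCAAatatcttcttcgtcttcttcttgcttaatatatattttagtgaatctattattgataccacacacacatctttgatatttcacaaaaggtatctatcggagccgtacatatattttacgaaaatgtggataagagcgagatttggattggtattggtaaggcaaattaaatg
CYP71A13 (chr2:13111989-13112238, minus strand): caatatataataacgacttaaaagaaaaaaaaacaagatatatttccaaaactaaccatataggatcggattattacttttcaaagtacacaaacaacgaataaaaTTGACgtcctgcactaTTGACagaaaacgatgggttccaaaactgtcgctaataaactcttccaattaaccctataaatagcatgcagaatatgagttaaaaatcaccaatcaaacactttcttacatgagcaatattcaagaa

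A G-box occurred before 4 of the 74 genes, which is 5.41% against 7.28% of the 19200 windows of all genes tested. These 4 were *PIF5*, *COR15A*, AT2G38820 and AT5G19120. The W-box core occurred before 35 genes, or 47.3% against 44.2%. The evening element stood before *MYBL2* and AT3G23450, or 2.7% against 2.53%. The other PIF site, CATGTG, was found before 10 genes (13.5% against 11%), the auxin response element TGTCTC before 7 (9.46% against 10.8%) and TATAAA before 38 (51.4% against 45.3%). No window held the GCC-box GCCGCC, which is present in 1.98% of all windows. Each share was close to that of all genes, and a match of letters is not evidence of binding.

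The libraries held between 3449191 and 4680620 reads, apart from replicate 1 of 4 h shade, which held 1154019. In that library 1 read equalled 0.856 CPM and 3 reads 2.57 CPM, against 0.216 to 0.291 CPM per read in the others, and these limits cover counting error only. Across genes, replicates correlated (Spearman) at 0.979 in 1 h sun, 0.974 in 1 h shade, 0.985 in 4 h sun and 0.951 in 4 h shade. Markers of leaf mesophyll summed to between 28976 and 35732 CPM in each library, while markers of flower summed to no more than 0.996 CPM and those of seed to no more than 0.237 CPM. Of the shoot apex markers, *STM* and *KNAT1* were detected in every library and *WUS* was at 0 in all of them. Among root markers *IRT1* was at 0 throughout and *CASP1* at no more than 1.71 CPM, but *PYK10* was at 314 and 169 CPM in the replicates of 4 h shade and at 193 and 192 CPM in 4 h sun.

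The 74 genes differed at 4 h by 0.81 to 3.16 on the log2(CPM + 1) scale, with a median of 1.03 against -0.03 over all genes tested. At 1 h their differences spanned -0.38 to 0.39. Separation of both shade from both sun libraries at 4 h was part of the choice and is found in 16.9% of the 19280 genes with at least 1 CPM in 2 libraries. Of the 74 genes, 73 passed that filter on low values, and AT4G22470 did not. The same thresholds with sun and shade exchanged gave 109 genes that were lower in shade at 4 h only. With the 2 times exchanged they gave 82 genes that were higher and 30 that were lower in shade at 1 h only. Before the limit on the 1 h difference there were 144 genes, of which 56 were higher in shade by at least 0.4 at 1 h as well and 14 were lower. RefSeq lists 71 of the 74 as protein coding and 3 as long noncoding RNAs (AT3G46658, AT1G18735 and AT2G09795).

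**Figure D1:**
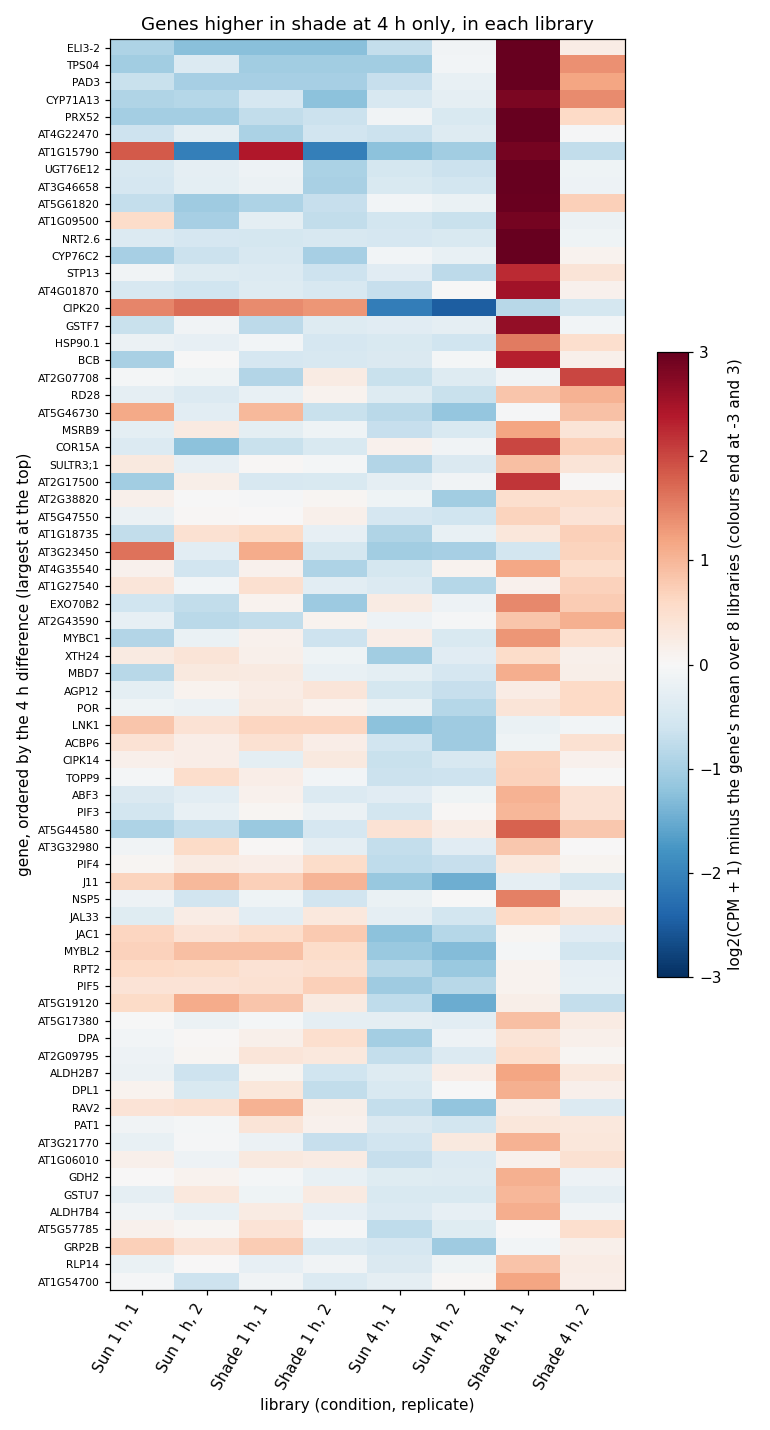
Each row is 1 of 72 of the 74 genes, ordered by its 4 h difference, and each column 1 of the 8 libraries. Colour is log2(CPM + 1) minus the mean of the gene over the libraries, red for higher and blue for lower, and ends at -3 and 3. The upper rows are darkest in replicate 1 of 4 h shade, and many lower rows are blue in both 4 h sun libraries.

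The 2 replicates of 4 h shade were far apart for many of these genes. Replicate 1 was the higher one in 58 of the 74, the median ratio of replicate 1 to replicate 2 was 1.63, and the median gap between them was 0.75 on the log2 scale against 0.34 over all genes tested. In 17 genes replicate 1 was at least 3-fold higher, and 16 of these are among the 20 genes with the largest 4 h differences. That order contains replicate 1, so a high value there raises a gene in it, and the 16 are a description. The share of all genes with a 3-fold gap was not counted. In 26 genes replicate 2 was under 10 CPM, and these reached the mean of 10 CPM through replicate 1. Replicate 2 was at least 2-fold higher in AT2G07708 and AT3G23450 only. In 28 genes the replicates lay within 1.5-fold of each other. With replicate 2 alone, 29 of the 74 genes still differed from the sun mean by 0.8 or more, with replicate 1 alone 67 did, and with each of them 22. When the separation of the libraries was not asked for, 12 further genes met the rest, and in all 12 replicate 1 alone was above both sun libraries. The smaller depth of replicate 1 goes with this gap, and its part in it was not tested.

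**Figure D2:**
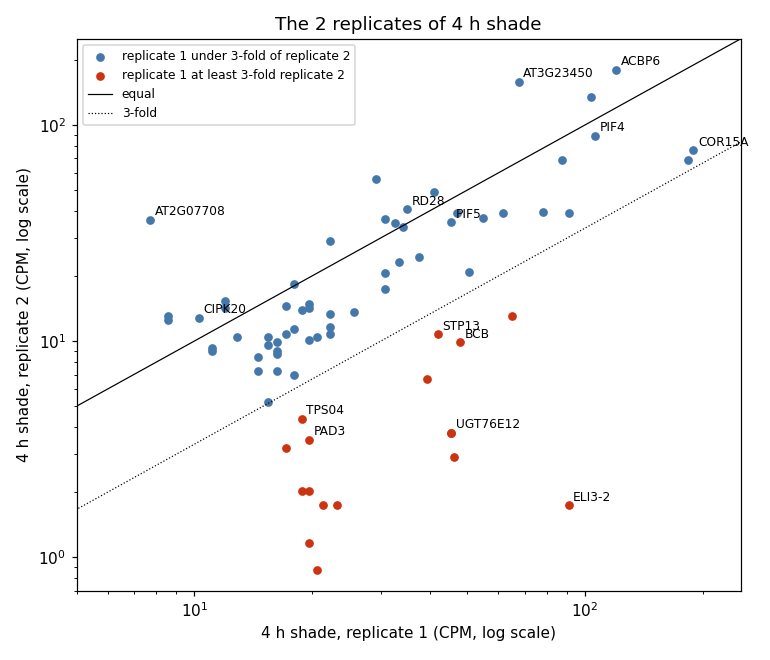
Level of each of the 74 genes in replicate 1 (x axis) and replicate 2 (y axis) of 4 h shade, in CPM on log scales. The solid line marks equal levels and the dotted line a 3-fold excess of replicate 1; the 17 red genes lie below the dotted line, with *ELI3-2* at 90.8 and 1.74 CPM.

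The 4 largest differences were those of genes known from inducible defence, and their replicates were far apart. *ELI3-2* (AT4G37990) encodes an elicitor-activated cinnamyl alcohol dehydrogenase, and its levels were 0.249 and 0 CPM in 1 h sun, 0 and 0 CPM in 1 h shade, 0.441 and 1.19 CPM in 4 h sun and 90.8 and 1.74 CPM in 4 h shade. The shade libraries did not overlap with sun, but replicate 1 was 52.1-fold above replicate 2, which rested on 6 reads. The 4 h difference of 3.16 would be 0.63 with replicate 2 alone. *PAD3* (AT3G26830), the cytochrome P450 of the last step of camalexin synthesis, was at 0.249 and 0 CPM in 1 h sun, 0 and 0 CPM in 1 h shade, 0.221 and 0.712 CPM in 4 h sun and 19.7 and 3.49 CPM in 4 h shade. *CYP71A13* (AT2G30770), an upstream enzyme of the same pathway, was at 0.249 and 0.279 CPM in 1 h sun, 0.649 and 0 CPM in 1 h shade, 0.662 and 0.95 CPM in 4 h sun and 15.4 and 5.23 CPM in 4 h shade. For both camalexin genes each 4 h shade library lay above all 6 others, with differences of 2.74 and 2.49, or 1.63 and 1.79 with replicate 2 alone. *TPS04* (AT1G61120), the geranyllinalool synthase that starts the synthesis of a herbivore-induced volatile, was at 0 and 0.558 CPM in 1 h sun, 0 and 0 CPM in 1 h shade, 0 and 0.95 CPM in 4 h sun and 18.8 and 4.36 CPM in 4 h shade. Its libraries ranked in the same way, and its difference was 2.88. These 3 genes, unlike *ELI3-2*, kept a difference above 1.5 in the deeper replicate. That replicate held 12 reads of *PAD3*, 18 of *CYP71A13* and 15 of *TPS04*, and the choice required it to lie above both sun libraries.

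Other genes near the top of the order were high in a single library. *PRX52* (AT5G05340), a secreted class III peroxidase, was at 0.882 and 0.475 CPM in 4 h sun and 19.7 and 2.03 CPM in 4 h shade. AT4G22470, of the lipid transfer protein family, was at 0.221 and 0.475 CPM in 4 h sun and 20.6 and 0.872 CPM in 4 h shade, where replicate 2 held 3 reads. *CYP76C2* (AT2G45570), a cytochrome P450, was at 0.882 and 0.712 CPM in 4 h sun and 19.7 and 1.16 CPM in 4 h shade. In each of the 3 the second shade replicate was within 2 CPM of the sun libraries. *NRT2.6* (AT3G45060), of the high-affinity nitrate transporter family, was between 1.08 and 1.25 CPM in the first 6 libraries and at 23.1 and 1.74 CPM in 4 h shade. AT1G09500, an NAD(P)-binding oxidoreductase, was at 1.1 and 0.95 CPM in 4 h sun and 21.4 and 1.74 CPM in 4 h shade. *UGT76E12* (AT3G46660), a UDP-glucosyltransferase, was at 2.65 and 2.37 CPM in 4 h sun and 45.4 and 3.78 CPM in 4 h shade. The noncoding AT3G46658 lies opposite to it and had the same values in 6 libraries and nearly the same in 4 h sun, and since the kit does not mark strand these 2 entries cannot be told apart and count as 1 signal.

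*STP13* (AT5G26340, listed as MSS1), a hexose-proton symporter, was at 7.47 and 5.86 CPM in 1 h sun, 5.84 and 4.89 CPM in 1 h shade, 6.17 and 4.27 CPM in 4 h sun and 42.0 and 10.8 CPM in 4 h shade. Both 4 h shade libraries were above the other 6, and the difference of 1.87 was 0.93 with replicate 2 alone. AT5G61820, named a stress up-regulated Nod 19 protein, had a like shape, with 7.06 and 6.41 CPM in 4 h sun and 65.1 and 13.1 CPM in 4 h shade. *BCB* (AT5G20230), a blue copper protein, was at 3.98 and 8.65 CPM in 1 h sun, 5.84 and 6.04 CPM in 1 h shade, 6.17 and 8.31 CPM in 4 h sun and 48.0 and 9.88 CPM in 4 h shade. Its second shade replicate was above the higher sun library by under 2 CPM. *GSTF7* (AT1G02920), a glutathione transferase, was at 1.54 and 1.66 CPM in 4 h sun and 18.8 and 2.03 CPM in 4 h shade, and 10.2% of its 40-base words, the read length, occur elsewhere in the genome. AT4G01870, a tolB-like protein, was at 3.31 and 5.94 CPM in 4 h sun and 39.4 and 6.68 CPM in 4 h shade. *AT2G17500*, of the auxin efflux carrier family, was at 2.43 and 2.85 CPM in 4 h sun and 17.1 and 3.2 CPM in 4 h shade, and it is the one gene with a 3-fold gap outside the first 20. *HSP90.1* (AT5G52640), a heat-inducible cytosolic chaperone, was at 4.23 and 3.91 CPM in 1 h sun, 4.54 and 3.16 CPM in 1 h shade, 3.31 and 2.85 CPM in 4 h sun and 16.3 and 7.27 CPM in 4 h shade. There both replicates exceeded all other libraries, and the difference of 1.55 was 1.02 with replicate 2 alone. *COR15A* (AT2G42540), a cold-induced protein that protects chloroplast membranes, was at 34.9 and 19.3 CPM in 1 h sun, 29.0 and 33.6 CPM in 1 h shade, 50.5 and 43.0 CPM in 4 h sun and 189 and 76.4 CPM in 4 h shade. It was higher at 4 h than at 1 h in sun as well, by 0.82, and by 1.91 in shade.

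**Figure D3:**
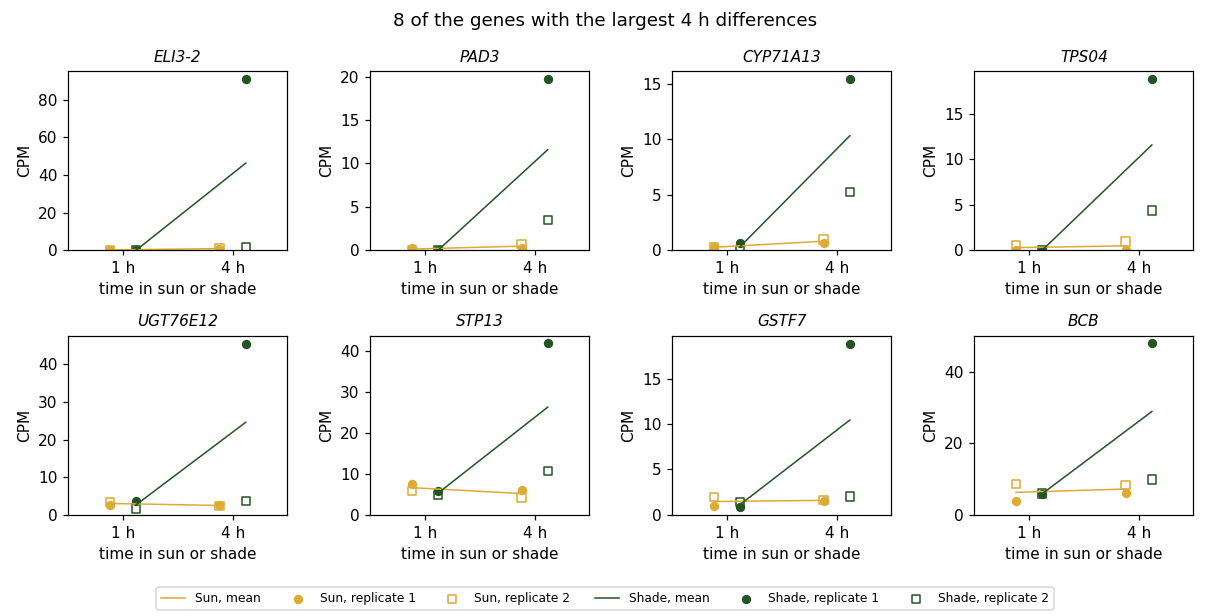
CPM of 8 of the 20 genes with the largest 4 h differences, at 1 h and 4 h, in sun (yellow) and shade (green). Filled circles are replicate 1, open squares replicate 2, and lines join the means of 2; in every panel the filled green circle at 4 h is far above the open square.

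Some other measures were also high in replicate 1 of 4 h shade. The 22 genes fixed as jasmonate repressors and outputs summed to 2007 CPM in replicate 1 and 412 CPM in replicate 2, against 503 and 1311 CPM in 4 h sun. The 15 genes of jasmonate synthesis summed to 2821 and 1045 CPM, against 1177 and 1830 CPM in 4 h sun. Replicates of both jasmonate lists were also apart in 1 h sun. The repressors and outputs summed to 1109 and 438 CPM there and to 329 and 390 CPM in 1 h shade. The synthesis genes summed to 1186 and 685 CPM in 1 h sun and to 672 and 720 CPM in 1 h shade. Of the 5 root markers *PYK10* was highest in the same library, *IRT1*, *COBL9* and *RCI3* were at 0 there, and *RCI3* was at 3.49 CPM in replicate 2. No gene of the jasmonate or root lists was called by limma, edgeR or DESeq2 at either time (at 4 h, 1 gene of each jasmonate list had an unadjusted limma p under 0.05), and their part in the differences above was not tested.

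The second shape was a sun level that was lower at 4 h than at 1 h. Both 4 h sun libraries lay below both 1 h sun libraries in 37 of the 74 genes (50%), against 22.5% of all genes tested, and above them in 9, against 33%. Both 4 h shade libraries were above both 1 h shade libraries in 42 genes, against 25.3%, and below them in 8, against 20.7%. Low 4 h sun values and high 4 h shade values entered the choice, so these shares are set beside the background and nothing is read from them. In 38 genes both 4 h shade libraries were above all 6 others (7.04% of all genes). By means, 22 genes were higher at 4 h than at 1 h in shade and not lower in sun, 37 were higher in shade and lower in sun, and 15 were lower or equal in shade and lower in sun. For those 15 the shade level did not go up with time. Of the 17 genes with the 3-fold gap 1 had the lower 4 h sun libraries, and of the 28 with close replicates 22 had them. Several of the 17 were near the floor in 1 h sun, such as *ELI3-2* at 0.249 and 0 CPM. A lower sun level at 4 h could hardly show in those, so nothing is read from this contrast either.

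**Figure D4:**
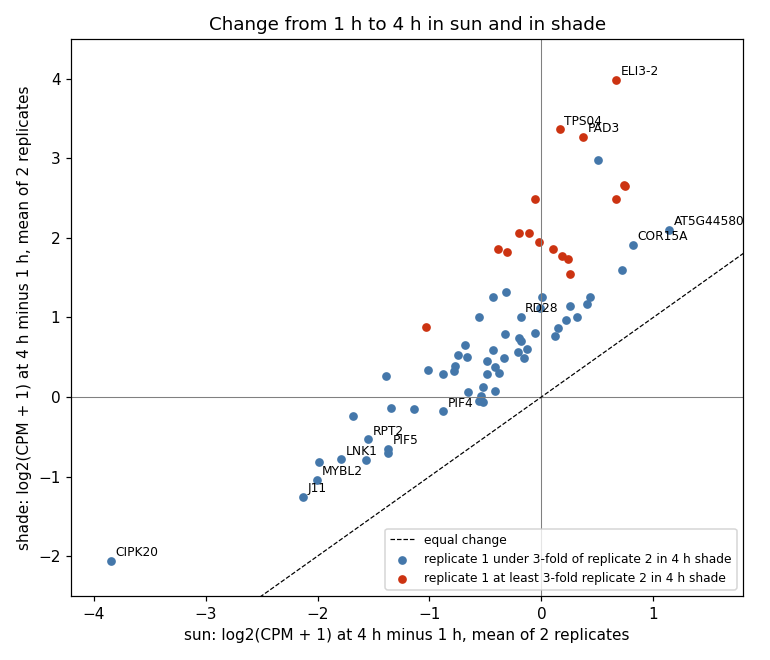
Difference of mean log2(CPM + 1) between 4 h and 1 h in sun (x axis) and in shade (y axis) for the 74 genes. All points lie above the dashed line of equal change, as the choice requires; the 17 genes with a 3-fold gap between the replicates of 4 h shade (red) lie mostly at the upper right, and genes such as *CIPK20*, *J11* and *LNK1* lie at the lower left.

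*CIPK20* (AT5G45820) encodes a kinase partner of calcium-sensing CBL proteins and had the largest difference between the times in sun. Its levels were 54.3 and 63.1 CPM in 1 h sun, 52.8 and 49.4 CPM in 1 h shade, 3.75 and 2.61 CPM in 4 h sun and 10.3 and 12.8 CPM in 4 h shade. The 4 libraries of 1 h were all above 49 CPM and the 4 of 4 h all under 13 CPM, with both shade libraries above both sun libraries at 4 h. The 4 h level minus the 1 h level was -3.85 in sun and -2.06 in shade, with a 4 h difference of 1.59. *J11* (AT4G36040), a chloroplast J-domain protein, was at 90.7 and 113 CPM in 1 h sun, 93.7 and 115 CPM in 1 h shade, 25.4 and 19.7 CPM in 4 h sun and 47.1 and 39.2 CPM in 4 h shade. *MYBL2* (AT1G71030) was at 56.5 and 65.9 CPM in 1 h sun, 66.4 and 51.2 CPM in 1 h shade, 15.4 and 13.5 CPM in 4 h sun and 33.4 and 23.3 CPM in 4 h shade. In both genes every 4 h library was below every 1 h library, and the shade replicates at 4 h did not overlap with sun. The differences at 4 h were 0.91 for *J11* and 0.90 for *MYBL2*.

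*LNK1* (AT5G64170), a clock-controlled coactivator that joins light signals to evening genes, was at 67.5 and 51.1 CPM in 1 h sun, 58.6 and 59.2 CPM in 1 h shade, 15.2 and 17.3 CPM in 4 h sun and 32.5 and 35.2 CPM in 4 h shade. Replicates agreed closely, and the 4 h difference of 1.01 became 0.96 or 1.07 with replicate 1 or 2 of shade alone. The gene overlaps AT5G64160 on the opposite strand, whose reads the kit cannot separate. The 13 clock genes of the fixed list, which does not hold *LNK1*, had no call by limma, edgeR or DESeq2 at either time (3 at an unadjusted limma p under 0.05 at 4 h) and a median 4 h difference of 0.03, with 7 of 13 positive. From the list, *PRR7* at 65.9 and 69.8 CPM in 4 h sun and 104 and 113 CPM in 4 h shade and *GI* at 77.2 and 80.0 CPM in 4 h sun and 115 and 131 CPM in 4 h shade, were chosen after their values were seen, and neither reached the limit of 0.8 (differences of 0.66 and 0.64).

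*RPT2* and *JAC1*, both of blue-light movement responses, had the same shape and were chosen for mention after their values were seen. Other genes of these responses were not examined as a set. *RPT2* (AT2G30520), which acts with phototropins in bending towards light, was at 125 and 119.7 CPM in 1 h sun, 110.3 and 115 CPM in 1 h shade, 45.2 and 37.3 CPM in 4 h sun and 87.3 and 68.9 CPM in 4 h shade. *JAC1* (AT1G75100), needed for chloroplasts to gather in weak light, was at 28.6 and 24.0 CPM in 1 h sun, 26.4 and 31.6 CPM in 1 h shade, 7.06 and 9.5 CPM in 4 h sun and 18.8 and 14.0 CPM in 4 h shade. At 1 h sun and shade overlapped in *JAC1*, while *RPT2* was slightly lower in both shade libraries. In both genes 4 h shade lay between the 1 h levels and those of 4 h sun. Their 4 h differences were 0.90 and 0.91. *RAV2* (AT1G68840), a repressor of flowering, was at 8.6 and 5.94 CPM in 4 h sun and 17.1 and 10.8 CPM in 4 h shade, after 16.7 to 31.1 CPM at 1 h. AT5G19120, an aspartyl protease family gene, was at 9.7 and 5.46 CPM in 4 h sun and 19.7 and 10.2 CPM in 4 h shade, after 21 to 38.8 CPM at 1 h. *ACBP6* (AT1G31812), a cytosolic acyl-CoA-binding protein, was at 176 and 150.4 CPM in 1 h sun, 178 and 149 CPM in 1 h shade, 87.1 and 62.0 CPM in 4 h sun and 119.9 and 179 CPM in 4 h shade.

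3 PIF genes were among the 74. *PIF4* (AT2G43010) was at 87.7 and 101 CPM in 1 h sun, 98.0 and 124 CPM in 1 h shade, 49.6 and 52.0 CPM in 4 h sun and 106 and 88.9 CPM in 4 h shade. Sun at 4 h was the one low condition, at about the same level in both replicates, and 4 h shade overlapped with the 1 h libraries. *PIF5* (AT3G59060) was at 56.0 and 56.4 CPM in 1 h sun, 58.0 and 69.8 CPM in 1 h shade, 19.4 and 23.0 CPM in 4 h sun and 45.4 and 35.5 CPM in 4 h shade. Its 4 h shade libraries lay below all 4 libraries of 1 h and above both of 4 h sun. *PIF3* (AT1G09530) was at 9.96 and 12.8 CPM in 1 h sun, 15.8 and 13.2 CPM in 1 h shade, 9.92 and 15.4 CPM in 4 h sun and 30.8 and 20.6 CPM in 4 h shade. *PIF3* instead had sun levels that overlapped between the times and 4 h shade above all 6 other libraries. The 4 h differences were 0.92, 0.89 and 0.97, and with replicate 2 alone 0.80, 0.72 and 0.69. *PAT1* (AT5G48150), a GRAS protein of phytochrome A signalling, was at 19.4 and 17.8 CPM in 4 h sun and 34.3 and 33.7 CPM in 4 h shade. *ABF3* (AT4G34000), a bZIP factor of abscisic acid signalling, was at 13.9 and 16.1 CPM in 4 h sun and 37.7 and 24.4 CPM in 4 h shade.

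**Figure D5:**
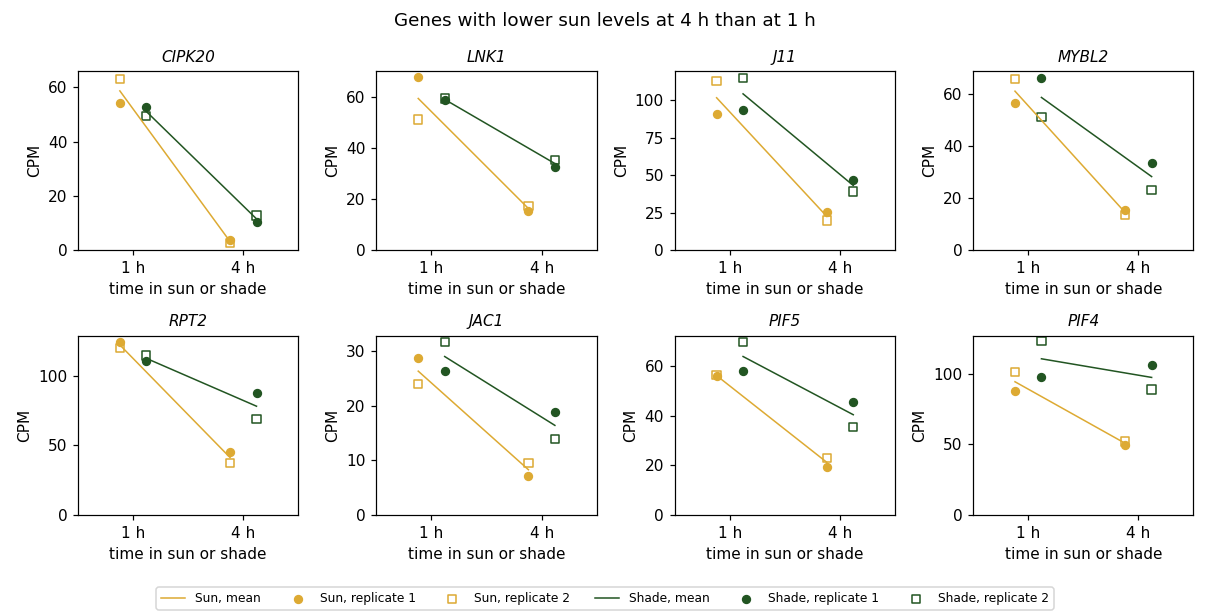
CPM of 8 genes with lower sun levels at 4 h than at 1 h, in sun (yellow) and shade (green). Filled circles are replicate 1, open squares replicate 2, and lines join the means of 2; at 4 h the green points lie above the yellow ones, and in all panels but *PIF4* also below all points of 1 h.

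A further set had 4 h shade replicates within 2-fold of each other and a higher mean in shade at 4 h than at 1 h. *RD28* (AT2G37180), a plasma membrane aquaporin, was at 15.7 and 14.2 CPM in 1 h sun, 16.2 and 20.7 CPM in 1 h shade, 14.6 and 11.6 CPM in 4 h sun and 35.1 and 40.7 CPM in 4 h shade. Both 4 h shade libraries were well above the other 6, which spanned 11.6 to 20.7 CPM, and the difference was 1.47. Its sequence is close to that of other aquaporins, and 28.1% of its 40-base words occur elsewhere in the genome, so reads may be shared between copies. AT2G43590, a chitinase family gene, was at 20.3 and 22.1 CPM in 4 h sun and 41.1 and 48.8 CPM in 4 h shade. *SULTR3;1* (AT3G51895), a sulfate transporter, was at 3.75 and 5.46 CPM in 4 h sun and 15.4 and 10.5 CPM in 4 h shade. *MSRB9* (AT4G21850), which repairs oxidised methionine, was at 7.72 and 9.26 CPM in 4 h sun and 30.8 and 17.4 CPM in 4 h shade. AT5G47550, a cystatin, was at 5.07 and 4.75 CPM in 4 h sun and 12.8 and 10.5 CPM in 4 h shade. AT2G38820 was at 11.2 and 5.46 CPM in 4 h sun and 18.0 and 18.3 CPM in 4 h shade. *AGP12* (AT3G13520), an arabinogalactan peptide of the cell surface, was at 72.5 and 94.3 CPM in 1 h sun, 103 and 114 CPM in 1 h shade, 60.9 and 54.1 CPM in 4 h sun and 104 and 135 CPM in 4 h shade. It was also above sun in both libraries at 1 h, by 0.39, just under the limit. *XTH24* (AT4G30270), a xyloglucan-modifying wall enzyme, was at 16.2 and 17.6 CPM in 1 h sun, 14.7 and 12.1 CPM in 1 h shade, 5.95 and 10.2 CPM in 4 h sun and 19.7 and 14.8 CPM in 4 h shade. Its shade libraries were below both sun libraries at 1 h and above both at 4 h.

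Counting was uncertain for some of the genes, while AT3G23450, AT5G46730 and AT1G15790 had replicates far apart in more than 1 condition. AT2G07708 (chr2:3386851-3388160, uncharacterized) was at 7.97 and 7.54 CPM in 1 h sun, 4.11 and 10.1 CPM in 1 h shade, 4.85 and 6.17 CPM in 4 h sun and 7.71 and 36.3 CPM in 4 h shade, and 96.9% of its 40-base words also occur in the mitochondrial genome. Its shade signal came from replicate 2. AT3G23450, uncharacterized, was at 313 and 80.4 CPM in 1 h sun, 217 and 69.0 CPM in 1 h shade, 47.6 and 49.6 CPM in 4 h sun and 67.7 and 158 CPM in 4 h shade, and AT5G46730, a glycine-rich protein, at 67.2 and 23.7 CPM in 1 h sun, 60.1 and 18.7 CPM in 1 h shade, 16.8 and 12.8 CPM in 4 h sun and 29.1 and 56.4 CPM in 4 h shade. In both, replicate 1 was over 2-fold above replicate 2 in sun and in shade at 1 h, and replicate 2 was the higher one in 4 h shade. AT1G15790, a Mediator subunit-like gene, was at 22.2 and 0.558 CPM in 1 h sun, 33.5 and 0.575 CPM in 1 h shade, 1.76 and 2.14 CPM in 4 h sun and 46.2 and 2.91 CPM in 4 h shade. It was high in replicate 1 and low in replicate 2 in 3 of the 4 conditions, so its 4 h difference of 2.21 is 0.41 in replicate 2. AT1G27540 (F-box, 5.51 and 3.8 CPM in 4 h sun and 8.56 and 13.1 CPM in 4 h shade) shared 46.5% of its words with other places. The noncoding AT1G18735 (8.82 and 14.7 CPM in 4 h sun and 22.3 and 29.1 CPM in 4 h shade) lies opposite to AT1G18730. In all, 17 of the 74 genes overlap another gene model, and 4 have over 10% of their words elsewhere. The overlapping genes include *CYP71A13*, AT5G61820, *JAC1* and *ABF3*, described above.

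The remaining genes differed at 4 h by 0.81 to 1.07. They include enzymes of central and aldehyde metabolism, with *GDH2* (AT5G07440), a glutamate dehydrogenase, at 18.1 and 17.8 CPM in 4 h sun and 50.5 and 20.9 CPM in 4 h shade, and *ALDH7B4* (AT1G54100), an aldehyde dehydrogenase, at 31.8 and 35.4 CPM in 4 h sun and 90.8 and 39.2 CPM in 4 h shade. In both the second shade replicate was under 4 CPM above the higher sun library. Genes ranked past 30 by the 4 h difference were chosen for mention after their values were seen, unless they are on a fixed list, lead a product family or lie at a limit of the choice. *GSTU7* (AT2G29420), a glutathione transferase of the detoxification list, was at 5.95 and 5.94 CPM in 4 h sun and 18.0 and 6.98 CPM in 4 h shade. The peroxidases AT3G32980 and AT3G21770 were at 16.3 and 9.01 CPM and 22.3 and 13.4 CPM in 4 h shade, against 5.07 and 6.89 CPM and 6.62 and 12.8 CPM in 4 h sun. *CIPK14* (AT5G01820, listed as SR1), a second CBL-interacting kinase, was at 21.0 and 24.0 CPM in 4 h sun and 54.8 and 37.2 CPM in 4 h shade, and the lectin *JAL33* (AT3G16450) at 8.82 and 7.12 CPM in 4 h sun and 17.1 and 14.5 CPM in 4 h shade.

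*NSP5* (AT5G48180), a nitrile specifier protein of glucosinolate breakdown, was at 57.3 and 42.7 CPM in 1 h sun, 58.6 and 42.8 CPM in 1 h shade, 55.8 and 62.9 CPM in 4 h sun and 183 and 68.6 CPM in 4 h shade. Only replicate 1 of 4 h shade stood clear of the other libraries. *EXO70B2* (AT1G07000), an exocyst subunit used in immunity, was at 6.62 and 4.75 CPM in 4 h sun and 16.3 and 9.88 CPM in 4 h shade. In *EXO70B2* replicate 1 was the higher one, and replicate 2 alone gave a difference of 0.72. *ALDH2B7* (AT1G23800), a second aldehyde dehydrogenase, was at 6.84 and 10.7 CPM in 4 h sun and 22.3 and 11.6 CPM in 4 h shade. *DPL1* (AT1G27980), which cleaves sphingoid base phosphates, was at 4.41 and 6.41 CPM in 4 h sun and 14.6 and 7.27 CPM in 4 h shade. In *DPL1* the second replicate was under 1 CPM above the higher sun library. *POR* (AT4G39920, PORCINO), a tubulin-folding cofactor, was at 7.72 and 4.51 CPM in 4 h sun and 11.99 and 14.2 CPM in 4 h shade, and *DPA* (AT5G02470), a partner of E2F cell cycle factors, at 3.53 and 7.36 CPM in 4 h sun and 11.1 and 9.3 CPM in 4 h shade. *TOPP9* (AT3G05580), a serine/threonine protein phosphatase, was at 5.07 and 5.22 CPM in 4 h sun and 14.6 and 8.43 CPM in 4 h shade. AT5G44580, uncharacterized, was at 11.2 and 13.1 CPM in 1 h sun, 9.73 and 15.2 CPM in 1 h shade, 29.99 and 26.1 CPM in 4 h sun and 77.9 and 39.5 CPM in 4 h shade. It was higher at 4 h than at 1 h in sun by 1.14, the largest such value of the 74, and by 2.1 in shade.

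By product name, 3 of 118 tested cytochrome P450s (2.54%), 3 of 50 peroxidases (6%), 2 of 29 glutathione transferases (6.9%) and 2 of 1047 protein kinases (0.191%) were among the 74, against 0.384% of all genes tested. The 3 cytochrome P450s and the peroxidase *PRX52* were under 1 CPM in every library outside 4 h shade. They passed the filter on low values only through the libraries that also chose them, so nothing is read from these shares. Single members came from UDP-glycosyltransferases, MYB factors, lipid transfer proteins, xyloglucan enzymes, lectins and heat shock proteins. None came from the 353 ribosomal protein genes or from genes named as WRKY, ethylene response or NAC factors. Of the fixed lists, detoxification and oxidative stress held 3 of the 74 genes (*ELI3-2*, *GSTF7* and *GSTU7*). Of its 27 genes 18 were tested, 16 of them had a positive 4 h difference, the median was 0.69 at 4 h and 0.06 at 1 h, and none was called by limma, edgeR or DESeq2 (6 at an unadjusted limma p under 0.05 at 4 h). This list counts the 3 chosen genes among its 18, and those had to be positive at 4 h. Its summed level was 743 CPM in replicate 1 of 4 h shade and 391 CPM in replicate 2, against 378 and 376 CPM in 4 h sun. In the abscisic acid and cold list, which holds *COR15A*, 13 of 16 tested genes were positive at 4 h, with a median of 0.45 and no call by these tools (6 at an unadjusted limma p under 0.05). At 1 h the list had 12 of 16 positive, a median of 0.23 and no call (4 at an unadjusted limma p under 0.05). Its sum was 1723 and 1072 CPM in 4 h shade and 995 and 943 CPM in 4 h sun. The heat shock list, which holds *HSP90.1*, had 3 of 7 positive and a median of -0.02. The expansin and xyloglucan list, which holds *XTH24*, had 12 of 14 positive with a median of 0.6 at 4 h and 0.58 at 1 h. The 4 h counts and medians of these lists likewise include the chosen gene that each one holds.

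Over all genes, the limma fit on the 8 libraries called 18 genes higher in 4 h shade (0.0934% of those tested) and 5 lower (0.0259%) at an adjusted p under 0.05. At 1 h it called 87 higher (0.451%) and 4 lower (0.0207%). The 18 include *CIPK20*, *RD28* and *AGP12*, 3 of the 73 chosen genes in the fit, which is given as a description because this contrast chose them. Without replicate 1 or replicate 2 of 4 h sun, limma called 1 and 0 genes in all at 4 h (803 and 786 at an unadjusted p under 0.05). The limit on the 1 h difference leaves little room for calls there, and none was made by limma, edgeR or DESeq2 (1 at an unadjusted limma p under 0.05).

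The early shade and auxin list, which the choice left empty, shows the other time course. With limma 9 of its 18 tested genes were called higher at 1 h and 2 at 4 h, and its median difference was 2.17 at 1 h and 0.84 at 4 h. *IAA29* (AT4G32280), an Aux/IAA repressor, was at 2.49 and 3.07 CPM in 1 h sun, 84.8 and 75.3 CPM in 1 h shade, 2.21 and 1.9 CPM in 4 h sun and 42.0 and 12.5 CPM in 4 h shade. Its shade libraries were above sun at both times, and its 4 h difference was 2.98 (SE 0.41, limma adjusted p = 0.0167, 7.36e-05 to 0.28 over the alternatives). *IAA2* (AT3G23030) was at 17.9 and 17.8 CPM in 4 h sun and 71.9 and 43.0 CPM in 4 h shade, a difference of 1.59 (SE 0.22, limma adjusted p = 0.0159, 7.82e-06 to 0.281 over the alternatives). The other 1 h calls were *IAA1*, *IAA5*, *IAA19*, *ATHB2*, *HAT2*, *YUC8* and *YUC9*, with 1 h differences of 2.16 to 3.33. *EXPA8*, an expansin, and *KAT1*, a guard cell potassium channel, were called at 1 h as well (1.59 and 2.83). The 1 h calls of *IAA2*, *IAA19*, *IAA29*, *HAT2* and *KAT1* held without each of the 1 h libraries in turn, and the other 6 were lost without at least 1 of them.

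With limma 2 list genes were called lower in 4 h shade, 1 of the glucosinolate and 1 of the flavonoid list, where edgeR and DESeq2 each called 1 and 2. *SOT17* (AT1G18590), a sulfotransferase of glucosinolate synthesis, was at 28.9 and 22.6 CPM in 1 h sun, 19.3 and 26.7 CPM in 1 h shade, 30.4 and 34.7 CPM in 4 h sun and 8.56 and 10.8 CPM in 4 h shade. Both 4 h shade libraries were below all others, with a difference of -1.66 (SE 0.24, limma adjusted p = 0.0182, 0.002 to 0.407 over the alternatives). *TT4* (AT5G13930), the chalcone synthase that opens flavonoid synthesis, was at 135 and 97.7 CPM in 1 h sun, 84.4 and 92.0 CPM in 1 h shade, 122 and 150.1 CPM in 4 h sun and 59.1 and 67.7 CPM in 4 h shade. Its 4 h shade libraries were likewise the lowest, with a difference of -1.08 (SE 0.18, limma adjusted p = 0.0384, 0.00208 to 0.602 over the alternatives). The medians of the glucosinolate and flavonoid lists were -0.6 and -0.82 at 4 h, and -0.03 and -0.41 at 1 h. All 4 of these 4 h calls were lost when either sun library of 4 h was left out, and that of *TT4* also without replicate 1 of shade. The lists for salicylate defence, rapid wound and touch, sugar starvation and the cell cycle had no call by limma, edgeR or DESeq2 at either time, with 4 genes at an unadjusted limma p under 0.05 at 4 h.

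Genes at the limits of the choice differed little from their neighbours. AT1G54700 and *RLP14* entered with differences of 0.808 and 0.813 at 4 h, and *AtCDC48B* and AT2G26690 stayed out with 0.784 and 0.797. AT2G17500 entered with 10.2 CPM, and AT2G35430 and *OFP13* stayed out with 9.79 and 9.8 CPM. *AGP12* and AT2G09795 entered with 1 h differences of 0.387 and 0.391, and *HMT-1* and AT2G39980 stayed out with 0.405 and 0.41.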

How the data were processed

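RNA of 8 libraries was sequenced in 40 bp single reads with a kit that does not mark strand. The authors mapped the reads with TopHat to TAIR10 and deposited CPM values per gene and library; their edgeR scaling, the read counter and the versions are not given in the sources used here. The number of unused columns of values was 0. All values were whole multiples of 1 read (100% within 0.01), which gave the reads. Genes with at least 1 CPM in 2 libraries (19280) were fitted with limma 3.58.1 in R 4.3.3 on log2(CPM + 1), in one model of 4 conditions with a mean-variance trend and Benjamini-Hochberg adjustment, at 0.05. The fit was tested on simulated data. Alternatives were pseudocounts, filters, scalings, a replicate block, edgeR 4.0.16 and DESeq2 1.42.0 on the recovered reads, the study's threshold of 0.001, and leaving out each library. Members and gene lists were chosen with earlier results of these data known. Named genes are the 30 with the largest 4 h difference, those on fixed lists, the first 3 of each product family, genes beside each limit, and list genes passing the test; others are marked as chosen after their values were seen. Results of 2 members are not reported here. Gene names, starts and sequence are from RefSeq TAIR10.1, where 32835 of the 33602 genes have an entry. With 2 libraries a group, the limma p-values rest on a spread between pools that the 4 conditions share and that is moderated across genes. They do not measure the spread of 4 h shade alone. There the median replicate gap over all genes tested was 0.34 on the log2 scale, against 0.18 in 4 h sun. Python 3.11.15, numpy 2.4.6, pandas 2.3.3 and matplotlib 3.10.9 were used.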

Additional observations from a re-analysis of the deposited data

Results flagged for a closer look

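5 of the genes described had both shade libraries below both sun libraries at 1 h and above both at 4 h. Their order at 4 h was required by the choice. Among the 74 genes, the 1 h shade values lay wholly under those of sun in 6 (8.11%) and wholly over them in 11 (14.9%). How often each order occurs at 1 h over all genes was not counted, so nothing is read from the number 5. The change of the shade difference from 1 h to 4 h, on the log2(CPM + 1) scale, was 2.13 for *STP13* (MSS1), 1.78 for *CIPK20*, 1.35 for *XTH24*, 1.02 for *RPT2* and 1.02 for *GDH2*. The difference between the times was not tested, because both times entered the choice of these genes. At 1 h the shade deficit was small, between -0.32 for *XTH24* and -0.12 for *RPT2*.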

How the results depend on the processing

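The number of genes that met the rule was 74, and 48 with a pseudocount of 5, 284 with a mean of at least 1 CPM, 23 with at least 30 CPM, 41 with a 4 h difference of at least 1 and 42 with a 1 h difference below 0.2. Leaving out a library gave 59 to 310 genes; without replicate 1 of 4 h shade there were 81, of which 23 were among the 74, and without replicate 2 there were 310, of which 67 were.

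The 4 h count of 23 genes called by limma was 10 with a pseudocount of 5, 1 with no filter, 49 with DESeq2 and 1 at an adjusted p under 0.001. Leaving out a library gave 0 to 921 genes, with 1 and 0 without replicates 1 and 2 of sun (803 and 786 at an unadjusted p under 0.05), and 31 and 921 without replicates 1 and 2 of shade. The 1 h count of 91 was 35 with no filter, 138 with edgeR and 13 at 0.001, and 14 to 23 without a library. Same-numbered libraries shared deviations weakly (correlations 0.10 at 1 h and -0.0632 at 4 h), so the replicate numbers were not taken as pairs, and with a replicate block the counts were 30 and 101. For the 15 calls of genes on fixed lists, 148 of 195 alternatives kept the call and 47 lost it, with no change of direction. The depth of replicate 1 of 4 h shade, 12 reads at 10 CPM, limits the 4 h shade means and the differences drawn from them; the other 4 h libraries held 34 to 45 reads at that level.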
